A study of Rattus norvegicus with 3 samples.

Results

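The genes described here are 10 components of the JAK-STAT pathway in tendon stem/progenitor cells (TSPCs): the receptor genes *Il6st* and *Ghr*, the kinase genes *Jak1*, *Jak2* and *Tyk2*, the transcription factor genes *Stat3*, *Stat5a* and *Stat5b*, and the feedback inhibitor genes *Socs2* and *Socs3*. They were selected on 2 grounds. *Jak2* was chosen by its signals on these arrays, which were known to be highest in TSPCs-7d, and the others were added for their place in the same pathway. The choice was made with earlier results of these data known, so the values of all 10 are a description. The 10 genes are covered by 16 of the 31042 probe sets (sets of short probes for a transcript), and are 10 of the 14216 genes that a probe set names alone. No probe set that names several genes holds any of them.

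TSPCs were grown from rat Achilles tendon at 1, 7 or 56 days after birth (TSPCs-1d, TSPCs-7d, TSPCs-56d). The labels name no genetic change or drug treatment for any of them. Cells of every age were kept in low glucose DMEM with serum and antibiotics, and were used at passage 2. Each culture was started from the pooled tissue of at least 2 animals and was expanded from colonies, so the signals are those of selected cells grown in a dish. Total RNA of each age was hybridized to 1 Affymetrix array, which leaves 3 arrays in all and no replicate.

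A JAK kinase sits on the inner end of a cytokine receptor that has no enzyme activity of its own. When a ligand brings receptor chains together, the kinases phosphorylate each other and the receptor, STAT proteins dock there, are phosphorylated in turn, and move to the nucleus to switch on target genes. SOCS proteins are among these targets and close the circuit by blocking the receptor or the kinase. In tendon, interleukin-6 and its signal chain gp130 are known for the response to injury and loading, and growth hormone acts through its receptor and JAK2. RNA levels do not report phosphorylation, by which the pathway is switched.

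The stretches of DNA around the transcription start are shown for 3 genes, because they let the letters be read beside the signals: *Jak2*, the member that stood apart in TSPCs-7d, *Il6*, the ligand gene with the widest spread over the ages, and *Cish*, a textbook STAT5 target. Sequences are from RefSeq, build GRCr8, and run 5′ to 3′ on the strand of the gene, from 250 bases before to 50 after the start. Capitals mark matches on either strand to 4 motifs: the STAT site GAS (TTCNNNGAA), the NF-kB site (GGG and TTTCC with NN between them), the cAMP response element CRE (TGACGTCA) and the C/EBP site (TTGCNNAA). *Jak2* lies at chr1:236408655-236408954 (plus strand), *Il6* at chr4:5894526-5894825 (minus strand) and *Cish* at chr8:116850719-116851018 (plus strand).
Jak2: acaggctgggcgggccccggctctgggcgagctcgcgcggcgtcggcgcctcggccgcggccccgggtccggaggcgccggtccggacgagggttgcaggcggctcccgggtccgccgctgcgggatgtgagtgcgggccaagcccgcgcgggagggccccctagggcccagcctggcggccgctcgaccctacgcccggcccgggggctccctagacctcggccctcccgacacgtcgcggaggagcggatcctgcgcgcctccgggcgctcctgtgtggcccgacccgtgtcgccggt
Il6: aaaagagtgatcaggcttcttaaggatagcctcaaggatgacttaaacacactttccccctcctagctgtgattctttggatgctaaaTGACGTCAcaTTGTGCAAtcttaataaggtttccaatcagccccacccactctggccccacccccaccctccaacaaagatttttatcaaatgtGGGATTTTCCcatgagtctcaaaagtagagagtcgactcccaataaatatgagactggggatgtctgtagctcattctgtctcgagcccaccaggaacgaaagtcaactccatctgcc
Cish: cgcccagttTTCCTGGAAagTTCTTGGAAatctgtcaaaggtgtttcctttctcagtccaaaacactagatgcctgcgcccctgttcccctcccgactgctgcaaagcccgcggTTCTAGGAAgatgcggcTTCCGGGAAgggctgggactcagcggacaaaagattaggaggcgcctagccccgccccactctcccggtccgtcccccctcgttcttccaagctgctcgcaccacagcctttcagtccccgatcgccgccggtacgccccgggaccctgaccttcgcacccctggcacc

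The *Jak2* window held none of the 4 motifs, and it is shown in lower case throughout. In the *Il6* window the CRE began 162 bases before the start, the C/EBP match (on the other strand) 152 bases before, and the NF-kB match 68 bases before. The *Cish* window held 4 GAS matches, which began 241, 230, 136 and 119 bases before the start. Among 33469 rat promoters of this length, a GAS match was present in 8.87%, an NF-kB match in 1.53%, a CRE in 1.83% and a C/EBP match in 10.6%. Of the members, 7 had an entry in the promoter table and none of these windows held any of the 4 motifs, while *Jak1*, *Tyk2* and *Socs2* had no entry. A match describes the letters only, and the absence of one says only that these letters are not in this window. Each window lies at a single annotated start, and whether that is the main start of the gene was not checked.

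The median signals of the arrays were 107, 108 and 114 by rising age, and r between arrays, on log2 signals of all probe sets, was 0.976 to 0.985. Signals are linear intensities as deposited, and a signal or a sum of signals is compared between arrays, not between genes. Where 3 signals of a gene are given without days, they follow the order of day 1, day 7 and day 56, the ages of the animals. A fold change divides a probe set's signal on an array by that on another, and the cutoff is the 2-fold of the methods. There is a single array for each age, so no difference could be tested or checked in replicates. As a guide to noise, the log2 ratios of a gene's probe sets were set against each other in 1714 genes that have 2 of them. In 10% of these genes they differed by more than 0.39 for day 7 over day 1, 0.44 for day 7 over day 56 or 0.53 for day 56 over day 1. This guide covers neither the culture nor the animals. It also does not cover probe sets below that median, among them those of *Ghr*, *Stat5b*, *Socs2* and *Socs3*. Dim means a signal below 48.9, which is the 25th percentile over all arrays. None of 9 tendon fibroblast markers was dim on any array. In TSPCs-56d vs. TSPCs-1d, 2 of them were over 2-fold higher (*Thbs4*, 76.5, 340 and 348 by rising age, and *Tnc*) and 1 was lower (*Tnmd*, 543, 351 and 158). The leukocyte marker *Ptprc* (CD45) was dim on all of them, at 20.8, 24.96 and 30.6.

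Among the members, *Jak2* was the gene that differed most between the ages, with a peak in TSPCs-7d. *Jak2* encodes the kinase of the growth hormone, prolactin and erythropoietin receptors, and it also takes part in signalling through gp130. Its signal was 213 on day 1, 985 on day 7 and 338 on day 56. The TSPCs-7d array thus stood well above both others, and the TSPCs-56d array was nearer to TSPCs-1d than to TSPCs-7d. TSPCs-7d exceeded TSPCs-1d 4.64-fold (log2 2.21) and TSPCs-56d 2.91-fold (log2 1.54), and TSPCs-56d exceeded TSPCs-1d 1.59-fold (log2 0.67). By rank of the log2 ratio among the 9382 genes above the median of mean signal, *Jak2* was number 9, number 54 and number 440 in these comparisons in turn. *Jak2* was chosen for its high signal in TSPCs-7d, so nothing is read from its ranks in the comparisons with that array. A single probe set measures *Jak2*, so its pattern has no second probe set to set beside it. In these bulk cultures, a change in the RNA per cell and a change in the number of cells that express a gene cannot be told apart.

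*Jak1* and *Tyk2*, the kinases of interferon, interleukin-6 and interleukin-10 family receptors, had no such peak. The leading probe set of *Jak1* (the brightest by mean) gave 2538 on day 1, 2477 on day 7 and 3210 on day 56, and the second gave 306, 334 and 426. Both probe sets were highest in TSPCs-56d, by 1.26-fold and 1.39-fold over TSPCs-1d, which is within the noise guide. *Tyk2* gave 233, 220 and 243, the narrowest spread of the kinases. The fourth kinase gene of the family, *Jak3*, which works with the common gamma chain of lymphoid cytokine receptors, gave 91.9, 95.0 and 108. The peak in TSPCs-7d was thus seen in *Jak2* and in none of the other kinase genes.

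**Figure D1:**
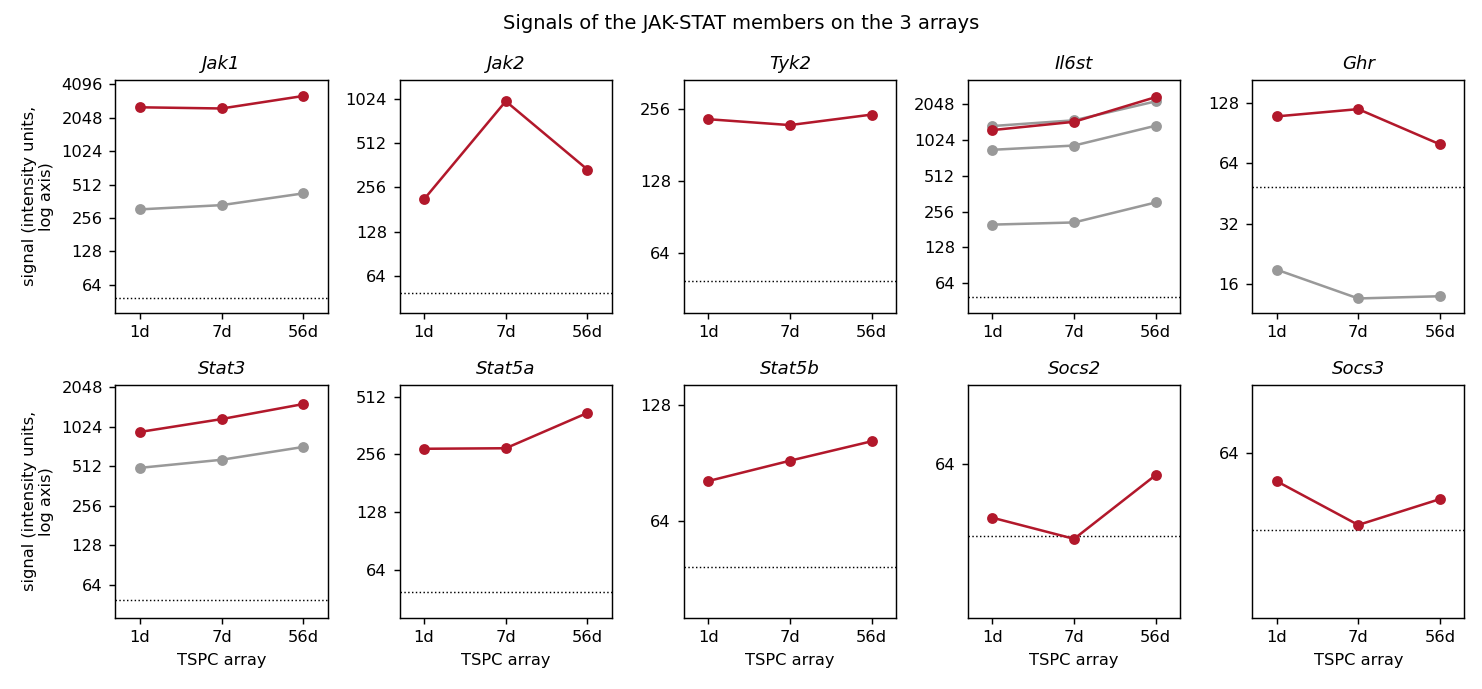
Signals of the 16 probe sets of the 10 members on the 3 arrays, 1 point per array (intensity units, log axis, each panel with its own range). Red is the brightest probe set of the gene by mean signal, grey the others, and the dotted line is the dim level of 48.9; *Jak2* peaks at 985 in TSPCs-7d, while all 4 *Il6st* and both *Stat3* probe sets are highest in TSPCs-56d.

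Of the 16 member probe sets, 1 was over 2-fold higher in TSPCs-7d vs. TSPCs-1d (all probe sets: 1.36%) and 0 were over 2-fold lower (all probe sets: 0.989%). For TSPCs-7d vs. TSPCs-56d, 1 was higher (1.68% of all) and 0 lower (1.31%). In both comparisons the probe set was that of *Jak2*, and nothing is read from these counts because its values chose the members. In TSPCs-56d vs. TSPCs-1d, 0 were over 2-fold higher (1.52%) and 0 were over 2-fold lower (1.8%).

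Below the 2-fold cutoff, the receptor chain and the STAT genes were highest in TSPCs-56d. *Il6st* encodes gp130, the chain shared by the receptors for interleukin-6, interleukin-11, LIF, oncostatin M and related ligands. Its leading probe set gave 1242 on day 1, 1459 on day 7 and 2356 on day 56. The other 3 probe sets gave 1344, 1501 and 2170, then 847, 920.3 and 1352, then 199, 207 and 305. Each of the 4 probe sets had the same order, with TSPCs-1d lowest and TSPCs-56d highest, and with TSPCs-7d close to TSPCs-1d. The ratios for TSPCs-56d vs. TSPCs-1d ran from 1.54-fold to 1.90-fold (log2 0.62 to 0.92), above the noise guide of 0.53, and those for TSPCs-7d vs. TSPCs-1d from log2 0.06 to 0.23. These 4 probe sets read the same gene and are not independent of each other.

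*Ghr*, the growth hormone receptor, went the other way in TSPCs-56d. Its leading probe set gave 109 on day 1, 119 on day 7 and 79.4 on day 56, a log2 ratio of -0.46 for TSPCs-56d vs. TSPCs-1d, which is inside the noise guide, and 0.58 for TSPCs-7d vs. TSPCs-56d, which is outside it. The leading probe set lies below the median of mean signal, where the guide was not taken. The second *Ghr* probe set was dim on every array (18.9, 13.6 and 14.0) and carries no order.

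*Stat3*, the main transcription factor downstream of gp130, was higher at each later age on both of its probe sets. The leading one gave 938 on day 1, 1175 on day 7 and 1530 on day 56, and the second 499.7, 576 and 721. The ratio for TSPCs-56d vs. TSPCs-1d was 1.63-fold on the first (log2 0.71) and 1.44-fold on the second (log2 0.53, level with the noise guide), and that for TSPCs-7d vs. TSPCs-1d was log2 0.33 and 0.20, within the noise guide.

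*Stat5a* and *Stat5b*, closely related factors that carry the growth hormone and prolactin signal, each had 1 probe set. *Stat5a* gave 274 on day 1, 276 on day 7 and 422 on day 56, level between the first ages and 1.54-fold higher in the last (log2 0.62). *Stat5b* gave 81.4, 91.9 and 103, a log2 ratio of 0.34 for TSPCs-56d vs. TSPCs-1d, inside the noise guide. In the RefSeq gene order of GRCr8, *Stat5b*, *Stat5a* and *Stat3* are direct neighbours on chromosome 10. Other STAT genes differed less: *Stat2*, which works in the type I interferon response, gave 291, 289.5 and 322. *Stat6*, the factor of interleukin-4, gave 194, 203 and 235, and *Stat4* was dim on every array.

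The feedback genes among the members were close to the dim level. *Socs3*, the inhibitor that binds gp130 and JAK kinases, gave 58.0 on day 1, 49.8 on day 7 and 54.5 on day 56. *Socs2*, which restrains the growth hormone receptor, gave 52.3, 48.3 and 61.3, and was dim in TSPCs-7d. Neither gene differed between any pair of arrays by more than the noise guide, and at such signals the arrays have little room to show a lower level.

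In TSPCs-56d vs. TSPCs-1d, 7 of the 16 member probe sets were over 1.5-fold higher, beside 6.39% of all probe sets. They belong to 4 genes, with all 4 probe sets of *Il6st*, 1 of the 2 of *Stat3*, and those of *Stat5a* and *Jak2*. With division of each array by its median, 3 probe sets were left, 2 of *Il6st* and 1 of *Stat3*, beside 4.23% of all probe sets. Over 1.5-fold lower in TSPCs-7d vs. TSPCs-56d were 2 member probe sets, 1 of *Il6st* and that of *Stat5a*, beside 4.94% of all. The highest of the 3 signals was that of TSPCs-56d for 12 of the 16 member probe sets, beside 43.3% of all probe sets, and for 7 of the 10 genes, beside 44.2% of all genes. With the arrays divided by their medians these were 11 probe sets, beside 31.8%, and 6 genes, beside 32.2%. The exceptions among the deposited signals were *Jak2*, *Ghr* and *Socs3*. The members were chosen with earlier results of these data known, and probe sets of the same gene are not independent. Nothing is therefore read from these shares. By rank of the log2 ratio TSPCs-56d vs. TSPCs-1d among 9382 genes, *Il6st* was number 216, *Stat3* number 387 and *Stat5a* number 515, so each was in the upper part of the distribution and none was at its edge.

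**Figure D2:**
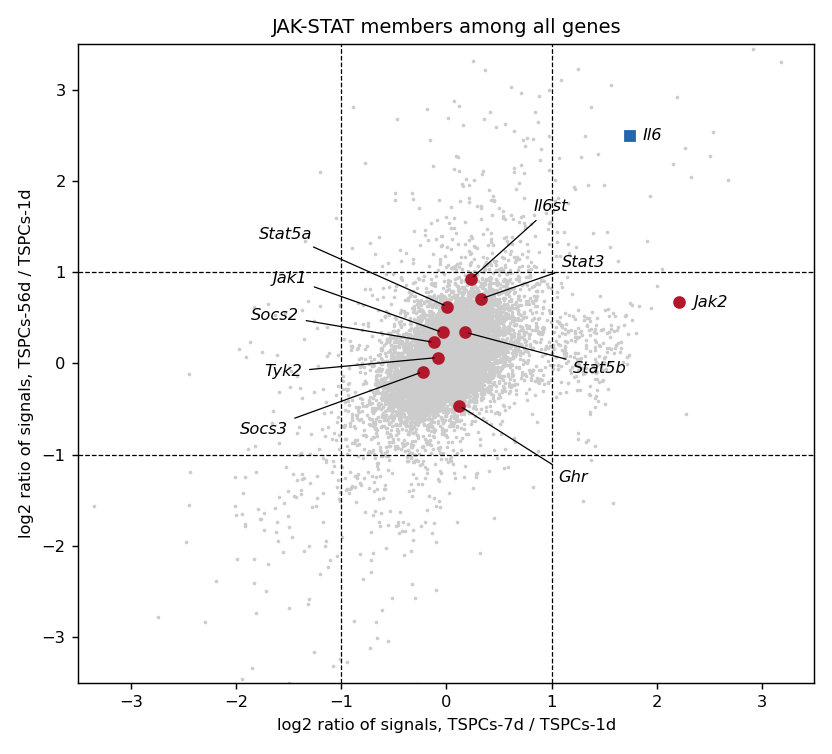
Each grey point is 1 of 14216 genes by the log2 ratio of its leading probe set, TSPCs-7d vs. TSPCs-1d across and TSPCs-56d vs. TSPCs-1d upwards, with dashed lines at 2-fold and 16 genes outside the plotted range. Red points are the 10 members, of which *Jak2* alone is past a dashed line (2.21 across), and the blue square is the ligand gene *Il6* (1.75 across, 2.49 upwards).

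Markers of dividing cells, like *Jak2*, were highest in TSPCs-7d. Of 10 cycling cell markers, 9 were over 2-fold higher on day 7 than on day 1 (median log2 ratio 1.45), 9 were so against day 56 (median 1.46), and 0 differed by over 2-fold between days 56 and 1 (median -0.01). Their summed signal was 7286 on day 1, 17034 on day 7 and 7455 on day 56, and none of them was at 0. The part of cell division in the *Jak2* signal was not tested. Among 9376 other genes above the median signal, the nearest to *Jak2* by distance in the plane of the log2 ratios of TSPCs-7d over both other ages were *Mlf1* (distance 0.33), *Uhrf1* (0.42), *E2f8* (0.44), *Mki67* (0.49) and *Esco2* (0.51). *Mki67*, which encodes the proliferation antigen Ki-67 and is 1 of the 10 markers, gave 324, 1079 and 344. *Mlf1* gave 56.7, 219 and 86.1. The likeness rests on 3 arrays and hence on a pair of ratios. *Jak2* had the larger ratio of TSPCs-7d vs. TSPCs-1d in each of these 5 pairs, but it was chosen for its high signal in TSPCs-7d. In TSPCs-7d vs. TSPCs-56d, *Mki67* alone of the 5 had a larger log2 ratio than *Jak2* (1.65 and 1.54).

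For *Il6st*, the nearest genes by the same measure were *Tmem63a* (0.04), *Aldh3b1* (0.04), *Slc39a14* (0.06), *P2rx4* (0.06) and *Fgfr1* (0.06). *Fgfr1*, a receptor of fibroblast growth factors, gave 728 on day 1, 824 on day 7 and 1367 on day 56. Each of the 5, as *Il6st*, had a small step from day 1 to day 7 and a larger one from day 7 to day 56. This likeness follows from the measure that picked them.

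The pathway beyond the members was followed in lists by role, each gene by its leading probe set. Like the target lists further below, these were chosen with earlier results of these data known, so their shares are descriptions. Together the lists by role measured 67 genes. In TSPCs-7d vs. TSPCs-1d, 1 was over 2-fold higher and 0 were lower, with a median log2 ratio of 0.02 (all 14216 genes: 1.87% higher, 1.08% lower, median 0.01). Against TSPCs-56d, TSPCs-7d had 0 higher and 1 lower, with a median of -0.18 (all genes: 2.10% higher, 1.72% lower, median -0.05). In TSPCs-56d vs. TSPCs-1d, 1 was higher and 0 were lower, with a median of 0.21 (all genes: 2.00% higher, 1.77% lower, median 0.06). The ratio was above 0 for 52 of the 67 genes, beside 57.9% of all genes. With the arrays divided by their medians it was above 0 for 46 of the 67, beside 44.9% of all genes. Genes that were dim on every array, such as 5 of 13 other ligands, are in these counts and medians and carry no order. The median of 0.21 is the ratio of *Stat4*, which was dim on every array.

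Among the ligands, *Il6* had the widest range. It encodes interleukin-6, the cytokine that signals through gp130 and STAT3. Its signal was 301 on day 1, 1011 on day 7 and 1698 on day 56. The signal was higher at each later age, 3.36-fold from day 1 to day 7 and 5.64-fold from day 1 to day 56 (log2 1.75 and 2.49), and the step from TSPCs-7d to TSPCs-56d was 1.68-fold. *Il6* was the 1 of 7 ligands of the gp130 family past 2-fold. All 7 were higher on day 56 than on day 1, beside 57.9% of all genes. Their median log2 ratio was 0.34 (all genes: 0.06). The ratio of *Ctf1* was 0.06, and it changes sign with the arrays divided by their medians. Apart from those of *Il6* and *Clcf1*, the ratios were inside the noise guide. *Clcf1*, a ligand of the ciliary neurotrophic factor receptor, gave 121, 142 and 186, and *Lif* gave 89.7, 88.6 and 102. The brighter *Cntf* gave 307, 275 and 394, and *Ctf1* gave 302, 300 and 315. Of 13 other ligands, 5 were dim on every array. *Il15*, a cytokine for natural killer and memory T cells, gave 147, 88.6 and 258, so TSPCs-7d was lowest and TSPCs-56d was 2.92-fold above it (1.76-fold above TSPCs-1d).

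Of the receptors that pair with gp130, none had a ratio of TSPCs-56d vs. TSPCs-1d as large as that of *Il6st*. *Il11ra1*, the interleukin-11 receptor chain, gave 840, 760 and 811, and *Lifr*, the LIF receptor, gave 105, 103 and 122. *Il6r*, the ligand-binding chain for interleukin-6, was dim in TSPCs-1d and TSPCs-7d (39.8 and 40.3) and at 50.7 in TSPCs-56d. None of the 5 measured partners passed 2-fold, and their median for TSPCs-56d vs. TSPCs-1d was 0.22, or 0.00 with dim signals raised to 48.9.

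The interferon and interleukin-10 family receptors had the highest median of the receptor lists for TSPCs-56d vs. TSPCs-1d, 0.51 over 8 genes, with none past 2-fold. *Ifngr1*, the ligand-binding chain for interferon gamma, gave 726 on day 1, 1064 on day 7 and 1374 on day 56, a ratio of 1.89-fold for TSPCs-56d vs. TSPCs-1d. Its partner *Ifngr2* gave 574, 690 and 808. *Il10rb*, shared by several receptors of that family, gave 592, 609 and 875. A second probe set of *Ifngr2* gave 150.0, 189 and 167, highest on day 7, so the order of its ages is not settled. The first interferon receptor chain *Ifnar1* had 6 probe sets whose log2 ratios ran from -0.12 to 0.53, so it has no settled direction. *Ifnar2* had log2 ratios of 0.53 on its leading probe set and -0.08 on its second. The list median of 0.51 lies between the leading ratios of *Ifngr2* (0.49) and *Ifnar1* (0.53), so it rests on genes whose probe sets differ. The 9 shared-chain receptors had a median of 0.37, but 3 of them were dim on every array and the median fell to 0.06 with dim signals raised to 48.9. *Crlf2*, the brightest of the shared-chain receptors, gave 680, 657 and 877. *Il4r*, the interleukin-4 receptor chain, gave 89.0, 114 and 164. The 4 measured single-chain receptors had a median of 0.25, and the brightest, *Prlr*, gave 173, 148 and 188 on its leading probe set.

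**Figure D3:**
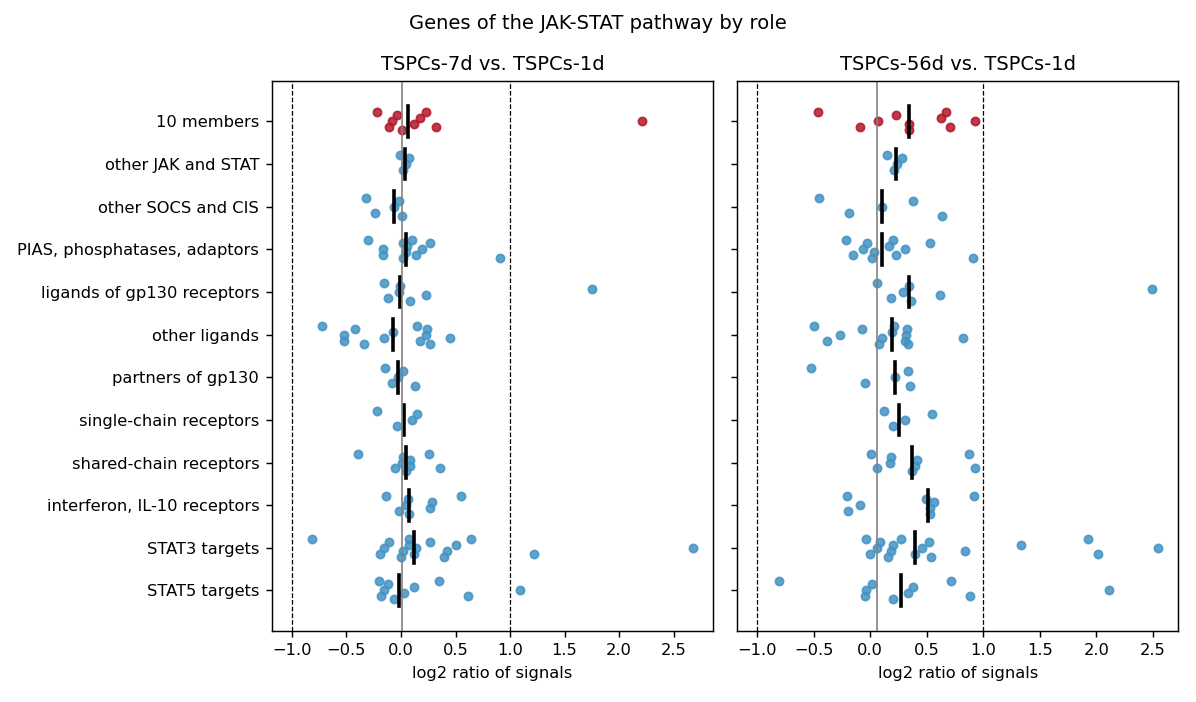
Log2 ratios of signals for each gene of the lists by role, TSPCs-7d vs. TSPCs-1d on the left and TSPCs-56d vs. TSPCs-1d on the right, 1 point per gene by its leading probe set. Black bars are list medians, the grey line is the median of all genes and the dashed lines are 2-fold; the members (red) have 1 gene far to the right on the left panel (*Jak2*, 2.21) and a median of 0.34 on the right panel.

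Of the inhibitors other than *Socs2* and *Socs3*, none passed 2-fold. *Socs5*, which acts on the epidermal growth factor and interleukin-4 receptors, gave 1468 on day 1, 1449 on day 7 and 2277 on day 56, 1.55-fold above TSPCs-1d, and its second probe set was 1.44-fold above. *Cish*, the gene with 4 GAS matches in the printed window, gave 273, 262 and 355. It was 1.30-fold higher on day 56 than on day 1 (log2 0.38, inside the noise guide). Its second probe set was under the dim level in 2 of the 3 arrays. *Socs7* gave 213, 180 and 155 on its leading probe set and 146, 156 and 133 on the second, which do not share an order, and *Socs1* was near or under the dim level (50.7, 40.6 and 44.6). The 2-fold cutoff was passed in no comparison by these 5 genes of the SOCS family or by 12 PIAS, phosphatase and adaptor genes. *Sh2b2*, an adaptor that binds JAK2, was dim on day 1 (38.9) and gave 72.8 on day 7 and 73.1 on day 56, at least 1.49-fold higher on either. *Ptpn11*, the phosphatase SHP2 that docks to gp130, gave 3598, 3218 and 3245.

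The genes that STAT3 is known to induce had 4 of 17 over 2-fold higher and 0 lower in TSPCs-56d vs. TSPCs-1d, with a median log2 ratio of 0.40, beside 2.00% of all genes higher and a median of 0.06. In TSPCs-7d vs. TSPCs-1d, 2 of the 17 were higher and 0 lower, beside 1.87% and 1.08% of all genes. *Cebpd*, a transcription factor of the acute phase response, gave 414 on day 1, 963 on day 7 and 1576 on day 56, 3.81-fold higher in the last than in the first. Its other probe sets gave 2.36-fold and 1.37-fold, in the same direction but of unequal size. *Ccl2*, the monocyte-attracting chemokine, gave 4509, 6045 and 11379 (2.52-fold). *Lbp*, the lipopolysaccharide binding protein, was dim in TSPCs-1d and TSPCs-7d (20.5 and 32.1) and 120.1 in TSPCs-56d, at least 2.46-fold higher than in either with dim signals raised to 48.9. *Lcn2*, an iron-binding acute phase protein, was dim on day 1 (29.7), at 190.2 on day 7 and at 119.8 on day 56, at least 3.89-fold and 2.45-fold higher than on day 1. With signals below the median of 110.1 raised to it, the log2 ratios of TSPCs-56d vs. TSPCs-1d were 0.13 for *Lbp* and 0.12 for *Lcn2*, so 2 of the 4 were no longer past 2-fold, and that of *Lcn2* for day 7 over day 1 was 0.79. The order of the ages differed within the list, with *Cebpd* and *Ccl2* highest in TSPCs-56d and *Lcn2* in TSPCs-7d. Others of the list were within 2-fold, such as *Icam1* (1049, 1258 and 1874) and *Myc* (600.0, 853 and 668). Many of these genes answer to other pathways as well, NF-kB among them, and the part of STAT3 was not tested. The list was chosen with earlier results of these data known, so nothing is read from its shares.

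The genes that STAT5 is known to induce had 1 of 10 higher by over 2-fold in TSPCs-56d vs. TSPCs-1d, with a median of 0.27 (all genes: 2.00%, median 0.06), and 1 of 10 in TSPCs-7d vs. TSPCs-1d (all genes: 1.87%). *Pim1* and *Bcl2l1* are in this list and that of STAT3, and *Cish* is here and among the inhibitors. *Igfbp3*, the main carrier of insulin-like growth factors, gave 505 on day 1, 644 on day 7 and 2180 on day 56, 4.32-fold above TSPCs-1d and 3.38-fold above TSPCs-7d. Its second probe set gave 289, 387 and 1377 (4.77-fold). *Igf1*, the growth factor through which growth hormone acts on many tissues, gave 153, 328 and 284, which is 2.13-fold higher on day 7 than on day 1. Its other 2 probe sets were 1.97-fold and 1.75-fold higher. *Igf1* was highest in TSPCs-7d on all 3 probe sets, as *Jak2* was, but stayed near that level in TSPCs-56d. *Ccnd1*, the G1 cyclin, gave 3237, 2980 and 1854, a log2 ratio of -0.80 for TSPCs-56d vs. TSPCs-1d, and was lowest in TSPCs-56d on all 3 of its probe sets.

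**Figure D4:**
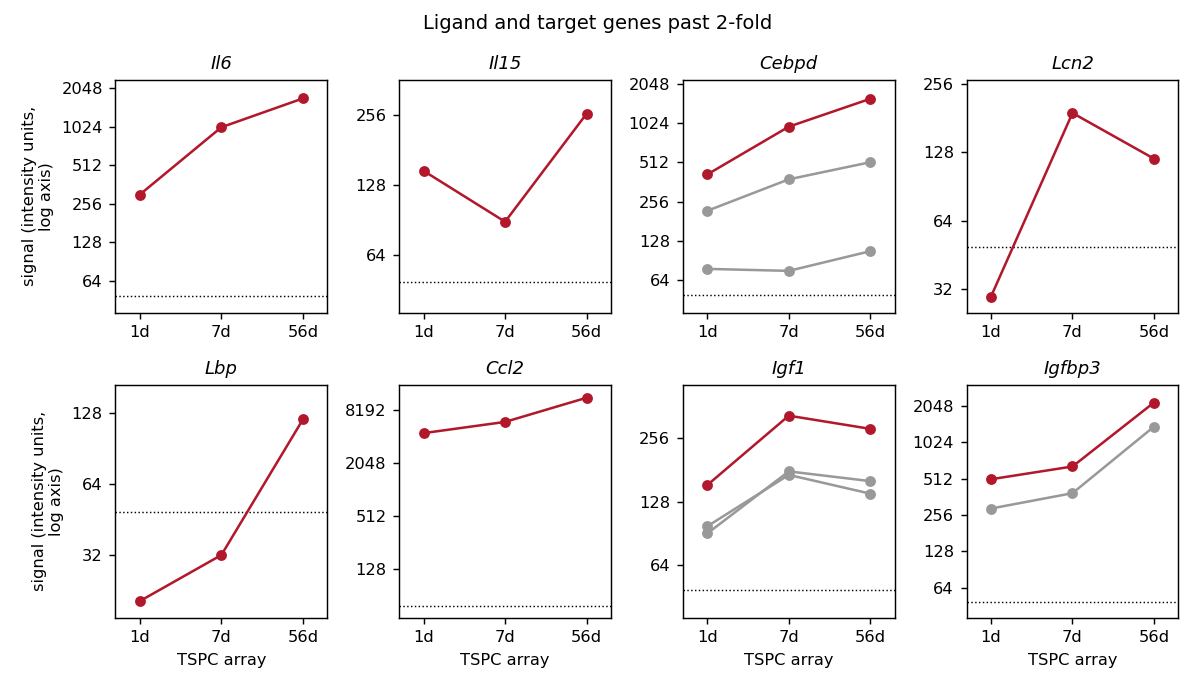
Signals of the ligand, STAT3 target and STAT5 target genes past 2-fold in any comparison, 1 point per array (intensity units, log axis, each panel with its own range), with red for the brightest probe set by mean signal, grey for the others and the dotted line at the dim level of 48.9. *Il6*, *Il15*, *Cebpd*, *Ccl2*, *Lbp* and *Igfbp3* are highest in TSPCs-56d, whereas *Lcn2* and *Igf1* are highest in TSPCs-7d.

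Interferon-induced genes had 2 of 17 over 2-fold higher in TSPCs-56d vs. TSPCs-1d and 0 lower, with a median of 0.28 (all genes: 2.00% higher, 1.77% lower, median 0.06). *Ifit2*, an antiviral RNA-binding protein, gave 483, 785 and 1220 on its leading probe set and 253, 403 and 633 on the second, 2.53-fold and 2.51-fold for TSPCs-56d vs. TSPCs-1d. *Psmb8*, a subunit of the immunoproteasome, gave 67.8, 80.1 and 176 (2.59-fold), but its log2 ratio fell from 1.37 to 0.67, under the cutoff, with signals below the median raised to it. *Gbp2*, a guanylate-binding protein, gave 69.9, 52.2 and 132, and was 2.52-fold higher on day 56 than on day 7 (log2 -1.34 for day 7 over day 56, and -0.26 with that floor).

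Markers of other cell types were read beside these differences. Of 12 leukocyte markers 5 were dim on every array, none was at 0, and their summed signal was 1012 on day 1, 986 on day 7 and 1207 on day 56. Of 8 endothelial markers 5 were dim on every array, with sums of 414, 428 and 490.0. The 7 skeletal muscle markers summed to 2167, 1260 and 5757. Most of each sum was *Acta1*, skeletal muscle actin, which gave 1772, 855 and 5327. Of the measured Schwann cell markers, *S100b* gave 529.8, 535 and 1000.4, and *Sox10*, near the dim level, gave 50.02, 57.85 and 64.41. The 6 adipocyte markers summed to 473, 409.7 and 403. The sums of the leukocyte, endothelial, muscle and Schwann lists were highest in TSPCs-56d, as were *Il6st*, *Stat3* and *Stat5a*. So was that of the 9 tendon fibroblast markers (57799, 61598 and 64322), while that of the adipocyte list was lowest in TSPCs-56d. Gene by gene, TSPCs-56d was highest for 8 of 12 leukocyte, 3 of 8 endothelial, 5 of 7 muscle and 4 of 6 adipocyte markers, beside 44.2% of all genes. It was highest for 2 of 2 Schwann and 3 of 9 tendon fibroblast markers. Markers that were dim on every array are in these counts and carry no order. The part of other cells in the member signals was not tested.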

How the data were processed

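Expression was measured in cultured TSPCs of 3 ages, with 1 Affymetrix Rat Genome 230 2.0 array per age. The deposited unit is a linear signal intensity per probe set, which the authors normalized before deposit. MAS5 is named in the submitters' processing notes, and RMA beside it in the methods, so the exact procedure is unknown. The methods and the labels also give different RNA amounts and labelling kits.

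Signals were used as deposited. The platform table gave 1 gene to 20826 probe sets, several to 436 and none to 9780. The members and lists were chosen with earlier results of these data known. Named genes are the members, list genes over 2-fold apart in any comparison (up to 4 per list and direction), and the 5 genes nearest to *Jak2* and *Il6st*. Bright ligands, receptors and SOCS genes of the lists are named too, but not every one. Other genes were chosen after their values were seen, as examples. All 10 member IDs are in the RefSeq table of GRCr8, and 7 have a promoter entry.

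Alternatives were division by the array median, quantile normalization, loess centring (span 0.2), floors at the 25th percentile and the median (110.1), a pseudocount of 32, and cutoffs of 1.5 and 3. The calculation was tested on simulated data. Python 3.11.15, numpy 2.4.6, pandas 2.3.3, statsmodels 0.14.6 and matplotlib 3.10.9 were used.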

Additional observations from a re-analysis of the deposited data

How the results depend on the processing

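With 1 array per age, no value has an error between cultures, and the limits below are those of processing alone. The count of member probe sets higher in TSPCs-7d vs. TSPCs-56d was 0 at a 3-fold cutoff and 1 at 2-fold. At a 1.5-fold cutoff, 2 were lower in TSPCs-7d vs. TSPCs-56d and 7 were higher in TSPCs-56d vs. TSPCs-1d, where the 2-fold cutoff gave 0 for each (all probe sets at 1.5-fold: 4.94% and 6.39%). The 7 became 3 (all probe sets: 4.23%) with each array divided by its median, which moved the median log2 ratio of all probe sets for TSPCs-56d vs. TSPCs-1d from 0.05 to -0.04. Of 210 member log2 ratios under the alternatives, 209 moved by less than the noise guide. The exception was *Ghr* in TSPCs-7d vs. TSPCs-56d, from 0.58 to 0.11 with a floor at the median. There were 6 changes of sign, all at sizes of 0.12 or less as deposited. Alternatives chosen after seeing the data were run for the named list genes, of which 19 of 198 values moved further than the guide (*Lbp*, *Lcn2*, *Gbp2* and *Psmb8*, under floors or the pseudocount, the median floor ending the 2-fold calls of *Lbp*, *Lcn2* and *Psmb8* in TSPCs-56d vs. TSPCs-1d, of *Lbp*, *Gbp2* and *Psmb8* in TSPCs-7d vs. TSPCs-56d and of *Lcn2* in TSPCs-7d vs. TSPCs-1d) with 0 changes of sign, and for the list medians, of which 0 of 78 did. No paired analysis was possible because each age has 1 array.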
